A study of Gallus gallus with 10 samples.

Results

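The genes described here are the Wnt ligands, their frizzled receptors and LRP co-receptors, and the secreted inhibitors that hold the ligands or the co-receptors back. They were taken by symbol from the expression table: every row named WNT, FZD, SFRP or DKK with a number, plus FRZB, WIF1, LRP5 and LRP6. The rule found 37 of the 17617 rows, namely 19 ligands, 8 frizzled receptors, 2 co-receptors, 5 genes of the SFRP group (SFRP1, SFRP2, SFRP4, SFRP5 and FRZB), and DKK1, DKK3 and WIF1. A frizzled row written Fzd8 and rows described as DKK2 or SFRP2-like without a symbol lay outside the rule. The row with the symbol DKK1 is described in the table as the related gene DKK4, and the LRP5 row is a transcript locus assembled from the reads and named by its match to pheasant, so both names were used with that limit.

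Wnt proteins are secreted, lipid-modified signals that act over short distances. At the receiving cell they bind a frizzled receptor, and together with LRP5 or LRP6 this stops the destruction of beta-catenin, which then enters the nucleus and acts with factors such as LEF1. Other Wnt proteins act through frizzled receptors without beta-catenin, on cell shape and planar polarity. SFRP proteins, FRZB and WIF1 bind the ligands outside the cell, and DKK1 blocks the co-receptors. In the vertebrate female tract, Wnt signals pass between stroma and epithelium and are known for patterning the duct and forming its glands.

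The 10 hens were dwarf white chickens, all with the genotype label WT, of which 5 laid translucent eggs (the translucent group) and 5 laid opaque eggs (the opaque group), as last graded at 85 weeks of age. The white isthmus, the oviduct segment where eggshell membrane fibers are laid down, was taken 4 h after laying, and 1 mRNA library was made per hen. The study compared the groups to screen for genes linked to the translucent shell. The groups were defined by the eggs and no gene was altered, and whole tissue was sequenced, so fewer cells of a type and less RNA per cell cannot be told apart.

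The reads assigned to genes totalled 15245165 to 19014779 per translucent hen and 11601225 to 17309287 per opaque hen. A floor of 3 reads lay between 0.160 and 0.297 CPM, where CPM is the read count scaled to library size with TMM factors. COL10A1, the collagen of the membrane-forming glands, was the second most abundant row in the table, as the labelled tissue implies. Shell gland markers summed to 13.4 CPM in Opaque-4, 9.49 CPM in Opaque-5 and 0.967 to 2.96 CPM in the other 8 hens. The most abundant row was SPINK7, with at least 54131.5 FPKM in every hen, and TF ranked 6. Both are on the magnum list given next. Summed CPM of the isthmus gland markers COL10A1 and LOXL2 was 62993 to 72368 in the translucent hens and 64308 to 81312 in the opaque hens. Summed CPM of the magnum markers, the egg-white genes of the neighbouring segment, was 172367 in Translucent-1 and 120813 in Opaque-5 and between 60283 and 83973 in the other 8 hens. Summed epithelial markers were also high in Translucent-1 and Opaque-5, at 4314 and 4790 CPM, beside 4166 in Opaque-4 and 2282 to 3200 in the others. The part of these levels in the Wnt results was not tested beyond the values given below.

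Of the 37 genes, 23 had enough reads to be tested: 9 ligands, 7 frizzled receptors, both co-receptors, FRZB, SFRP1, SFRP2, DKK3 and WIF1. The mean FPKM, which is corrected for gene length and so allows genes to be compared, was above 1 in 21 genes and above 10 in 10 genes. A few members carried most of the signal in each role. The plot of every member by hen shows these levels.

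**Figure D1:**
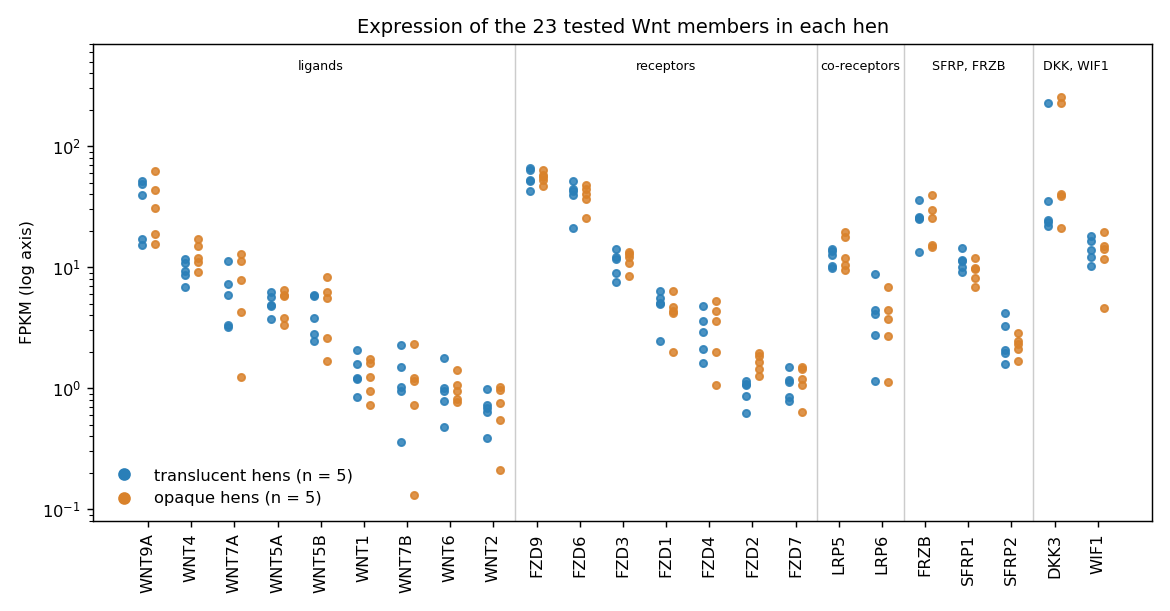
FPKM of each tested Wnt member in each of the 10 hens, on a log axis and grouped by role. Points are single hens colored by group. FZD9 lies in a narrow band between 42.9 and 65.9 FPKM, while DKK3 splits into 7 hens at 21.0 to 40.1 and 3 hens at 227 to 255.

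Among the ligands, WNT9A was the most abundant, with a mean of 34.4 FPKM. It is known from joint and limb development in the chicken. In the translucent hens 1 to 5 it measured 15.3, 39.4, 51.7, 17.0 and 49.0 FPKM, and in the opaque hens 1 to 5 it measured 15.5, 62.9, 31.1, 43.3 and 18.8 FPKM. Each group held both low and high hens over nearly the same range, and the log2 fold change of translucent over opaque was −0.01 (SE 0.42, edgeR, n = 5 and 5).

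WNT4, the ligand required for the formation of the female duct in the mouse, followed with a mean of 11.1 FPKM and lay below WNT9A in 9 of 10 hens. Its values were 6.91, 10.8, 9.31, 11.7 and 8.61 FPKM in the translucent hens and 17.2, 10.96, 14.9, 9.05 and 11.8 FPKM in the opaque hens. The highest values were opaque and the lowest were translucent, but the groups overlapped. WNT7A, an epithelial ligand of the mouse oviduct and uterus, averaged 6.84 FPKM and lay below WNT4 in 7 of 10 hens. It measured 3.34, 7.28, 5.91, 3.21 and 11.3 FPKM in the translucent hens and 4.23, 11.2, 7.87, 12.8 and 1.24 FPKM in the opaque hens. Opaque-4 and Opaque-5 were thus the highest and the lowest hen of all, within 1 group.

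The order of the lower ligands was not fixed from hen to hen. WNT7A exceeded WNT5A, a ligand that mostly acts without beta-catenin, in 6 of 10 hens, and WNT5A at 5.06 FPKM exceeded its close relative WNT5B at 4.52 FPKM in 6 of 10 hens. A clear step followed, since WNT5B exceeded WNT1, with a mean of 1.31 FPKM, in all 10 hens. WNT7B varied widely around a mean of 1.16 FPKM, with 0.36, 1.49, 2.29, 1.03 and 0.94 FPKM in the translucent hens and 2.31, 0.73, 1.21, 1.15 and 0.13 FPKM in the opaque hens. Its highest CPM was 14.8 times its lowest, in Translucent-3 and Opaque-5. The Opaque-5 value rested on 3 reads, which is the floor, and the other hens held 13 to 76 reads. WNT6 and WNT2 were at or below 1 FPKM on average.

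The remaining 10 ligands had too few reads for the main test. WNT3, WNT3A and WNT9B had 0 reads in every hen, which allows a level of up to 0.160 to 0.297 CPM depending on the hen. WNT8A, WNT8B, WNT11B and WNT16 had between 1 and 4 reads over all 10 hens. WNT2B, WNT10A and WNT11 had 22, 27 and 29 reads over all hens, and no hen held more than 9 reads of any of them. Without the filter on low counts, edgeR gave log2 fold changes of 0.16 (SE 0.78) for WNT2B, −0.60 (SE 1.16) for WNT10A and −0.98 (SE 0.94) for WNT11. All 11 members below the filter with at least 1 read were fitted in this way, and their unadjusted p-values in edgeR were between 0.138 and 0.865.

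FZD9 and FZD6 made up most of the frizzled message. FZD9 measured 42.9, 65.9, 51.3, 64.2 and 52.4 FPKM in the translucent hens and 64.0, 46.5, 57.6, 52.5 and 55.8 FPKM in the opaque hens. It was the steadiest tested member, with the highest CPM only 1.43 times the lowest, and its log2 fold change was −0.00066 (SE 0.13, edgeR). FZD6, a receptor known for planar polarity and hair patterning in the mouse, measured 21.2, 42.4, 44.1, 39.9 and 52.0 FPKM in the translucent hens and 40.3, 47.6, 44.6, 36.3 and 25.4 FPKM in the opaque hens. Its lowest hens, Translucent-1 and Opaque-5, were those with the highest summed magnum markers, a sum made up mostly of SPINK7. However, OVAL was 5375 FPKM in Translucent-1 and 33.3 FPKM in Opaque-5, and OVALY was 220 and 0.74 FPKM.

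FZD9 exceeded FZD6 in 9 of 10 hens, and FZD6 exceeded FZD3, at a mean of 11.2 FPKM, in all 10 hens. FZD3 exceeded FZD1 (4.60 FPKM) in all 10 hens, and FZD1 exceeded FZD4 (3.12 FPKM) in 9 of 10 hens. FZD2 and FZD7 were the lowest tested receptors, at 1.29 and 1.13 FPKM, and their order held in 7 of 10 hens. FZD10 was below the filter with 33 reads over all hens, and its log2 fold change without the filter was 1.28 (SE 0.81). For FZD6 the reads per FPKM unit, which should follow a fixed gene length, corresponded to between 3469 bases in Translucent-5 and 4099 bases in Opaque-5, a range of 18.2%, while 14 other members with at least 40 reads in every hen varied by at most 0.628%. For this reason FZD6 in FPKM and in CPM need not rank the hens alike. Members with fewer than 40 reads in any hen were left out of this check. Among them, WNT7B was 1.03 FPKM and 1.83 CPM in Translucent-4 but 0.94 FPKM and 2.05 CPM in Translucent-5.

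Both co-receptors were present, with LRP5 above LRP6 in all 10 hens (13.0 and 4.01 FPKM on average). LRP5 measured 13.6, 10.2, 14.2, 9.92 and 12.5 FPKM in the translucent hens and 9.52, 11.9, 10.5, 19.6 and 17.8 FPKM in the opaque hens. LRP6 measured 1.14, 4.40, 4.11, 2.73 and 8.80 FPKM in the translucent hens and 3.76, 6.89, 4.43, 2.69 and 1.12 FPKM in the opaque hens. Opaque-5 was thus near the top for LRP5 and at the bottom for LRP6, and the groups overlapped for both. The log2 fold changes were −0.21 (SE 0.26) for LRP5 and 0.16 (SE 0.48) for LRP6 in edgeR.

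Of the SFRP group, FRZB, which binds Wnt ligands and is known from cartilage, had the highest mean (25.1 FPKM) and exceeded SFRP1 in 9 of 10 hens. FRZB measured 13.4, 25.3, 25.2, 36.2 and 26.1 FPKM in the translucent hens and 29.9, 39.2, 25.7, 14.7 and 15.4 FPKM in the opaque hens. SFRP1, a soluble decoy for the ligands, measured 14.5, 10.1, 9.19, 11.5 and 11.2 FPKM in the translucent hens and 11.9, 8.14, 9.85, 9.61 and 6.86 FPKM in the opaque hens. FRZB was low in Translucent-1, Opaque-4 and Opaque-5, and SFRP1 was highest in Translucent-1 and lowest in Opaque-5. SFRP2 averaged 2.46 FPKM and was below SFRP1 in all 10 hens, while SFRP4 with 67 reads over all hens and SFRP5 with 5 were below the filter. The log2 fold change of SFRP4 without the filter was −0.29 (SE 0.84).

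DKK3 had the highest mean of all members, 91.5 FPKM, and the largest SD of log2 CPM. The mean was carried by 3 hens: the median was 36.9 FPKM, and FZD9, with a median of 54.1 FPKM, exceeded DKK3 in 7 of 10 hens. Unlike the other dickkopf proteins, DKK3 is a divergent member that does not bind LRP co-receptors in the usual way. It measured 23.5, 228, 21.8, 35.0 and 24.7 FPKM in the translucent hens and 40.1, 21.0, 38.8, 227 and 255 FPKM in the opaque hens. Translucent-2, Opaque-4 and Opaque-5 stood far above the rest, and no hen lay between 40.1 and 227 FPKM. Ranked by the SD of log2 CPM over the 10 hens, DKK3 was 126th of 12858 tested genes (SD 1.56). High and low hens occurred in both groups, and the log2 fold change was −0.90 (SE 0.88, exact permutation p = 0.310, n = 5 and 5).

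The DKK3 difference depended on single hens. Without Translucent-2 the log2 fold change was −2.23 (edgeR unadjusted p = 0.0147), and with only the hens numbered 1 to 3 it was 1.54, in the other direction. The matched genes next to DKK3 in the RefSeq list of GRCg7b did not show a split of that size, and the neighbour LOC107053373 was not matched. MICAL2 measured 4.06 to 10.7 FPKM, USP47 measured 24.8 to 33.6 FPKM and GALNT18 measured 17.3 to 26.9 FPKM over the 10 hens. In Translucent-2, Opaque-4 and Opaque-5, where DKK3 was high, MICAL2 was at 8.21, 4.50 and 4.99 FPKM. In the same order of hens, USP47 was at 25.5, 33.6 and 33.2 FPKM and GALNT18 at 26.9, 25.5 and 19.96 FPKM.

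WIF1, which binds Wnt ligands directly, measured 18.1, 16.5, 10.2, 13.9 and 12.1 FPKM in the translucent hens and 14.99, 19.6, 14.2, 4.60 and 11.6 FPKM in the opaque hens. Opaque-4 was far below the rest, and the other 9 hens lay between 10.2 and 19.6 FPKM in both groups. DKK1 had 1 read over all 10 hens.

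The translucent and opaque hens were set against each other by the edgeR quasi-likelihood test over 12858 genes, and a gene was called at a Benjamini-Hochberg adjusted p under 0.05 with at least a 2-fold change. By this rule 0 of 23 members were called, and the share over all tested genes was 0%. The smallest adjusted p over all genes was 0.655, and every member had an adjusted p of 0.9999 in edgeR. DESeq2 called 0 members and 4 of 16273 genes (0.0246%). At an unadjusted p of at most 0.05 with at least a 2-fold change, edgeR again found 0 members, against 0.428% of all tested genes.

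At an unadjusted p under 0.05 edgeR found 2 of 23 members, FZD2 and WNT4, both lower in the translucent group, where 2.19% of all tested genes passed (1.12% lower and 1.07% higher). DESeq2 found the same 2 genes, where 2.56% of all genes passed. With the replicate number as a block, FZD2 alone passed, where 1.26% of all genes did, and with only the hens numbered 1 to 3, WNT4 and FZD4 passed, where 7.67% did. Of the 23 members 12 had a positive and 11 a negative log2 fold change, from −0.90 to 0.33, with a median of 0.00034 beside −0.0057 over all tested genes. The change was smaller than 0.25 in 18 members and smaller than its own SE, which was derived from the test statistic, in 19. The plot of fold changes shows this.

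**Figure D2:**
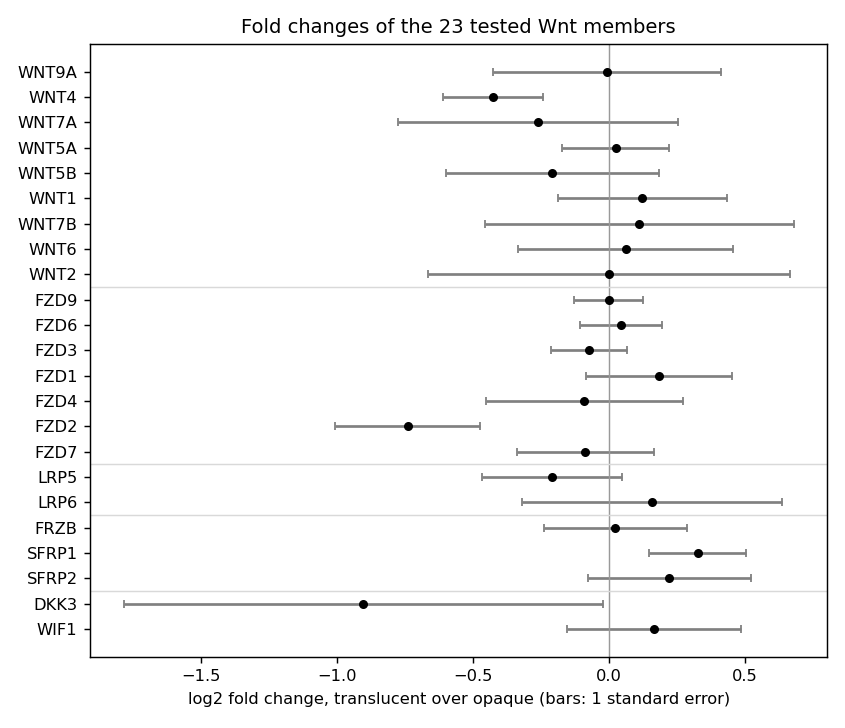
Log2 fold change of translucent over opaque for the 23 tested members, from edgeR on TMM-scaled counts, with bars of 1 SE. FZD2 at −0.74 and WNT4 at −0.43 are the members with an unadjusted p under 0.05, and all adjusted p-values are 0.9999.

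FZD2, a receptor for several ligands including WNT5A, was low throughout. It measured 1.07, 1.09, 0.86, 1.14 and 0.62 FPKM in the translucent hens and 1.97, 1.27, 1.83, 1.65 and 1.44 FPKM in the opaque hens. All 5 opaque hens were above all 5 translucent hens in FPKM, which held for 1 of 23 members and for 0.474% of all tested genes. In CPM the groups just overlapped, at 2.09 in Translucent-1 and 2.08 in Opaque-2, and 0 members and 0.443% of all tested genes were without overlap. Translucent hens averaged 1.62 ± 0.437 CPM of FZD2 and opaque hens 2.71 ± 0.371 CPM (SD, 5 hens each), which corresponds to a log2 fold change of −0.74 (SE 0.27, edgeR unadjusted p = 0.0170, adjusted p = 0.9999, exact permutation p = 0.0159).

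WNT4 averaged 13.5 ± 2.09 CPM over the translucent hens and 18.2 ± 3.84 CPM over the opaque hens (SD, 5 hens each). Its log2 fold change was −0.43 (SE 0.18, edgeR unadjusted p = 0.0388, adjusted p = 0.9999, exact permutation p = 0.0476). In WNT4 the unadjusted p was above 0.05 with 6 of the 10 hens left out in turn, and without Translucent-1 and Opaque-5 it was 0.120, with a log2 fold change of −0.34. For FZD2 without these hens the value was −0.83 (edgeR unadjusted p = 0.0198). SFRP1 had the largest positive value among the members, 0.33 (SE 0.18, edgeR unadjusted p = 0.0954), and it was 0.10 without Translucent-1 and Opaque-5.

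**Figure D3:**
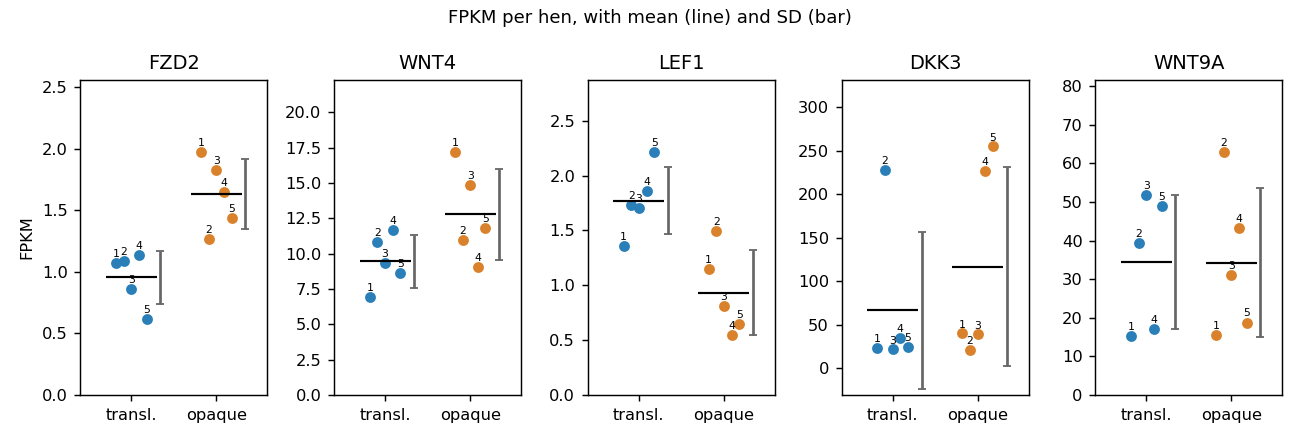
FPKM of FZD2, WNT4, LEF1, DKK3 and WNT9A in each hen, with the mean and SD of each group. The FZD2 points of the groups do not overlap (0.62 to 1.14 and 1.27 to 1.97), while those of WNT9A and DKK3 cover the same range in both groups.

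Summed by role, the groups did not differ beyond the spread between hens. Summed ligand FPKM was 64.0 ± 22.0 in the translucent group and 69.0 ± 23.7 in the opaque group (SD, n = 5 each, exact permutation p = 0.714). The frizzled sum was 116 ± 22.5 and 116 ± 14.5 FPKM (exact permutation p = 0.929), and the co-receptor sum was 16.3 ± 3.46 and 17.6 ± 3.57 FPKM (exact permutation p = 0.571). Secreted inhibitors summed to 120 ± 91.4 and 166 ± 99.8 FPKM (exact permutation p = 0.254), and without DKK3 to 53.6 ± 7.42 and 49.8 ± 15.9 FPKM (exact permutation p = 0.508).

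The makeup of the total changed mostly with DKK3. It made up between 6.32% and 57.3% of the summed member FPKM of a hen, with a median of 12.5%, and 45.6%, 48.8% and 57.3% in Translucent-2, Opaque-4 and Opaque-5. FZD9 took between 11.3% and 22.3%. The stacked plot shows this.

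**Figure D4:**
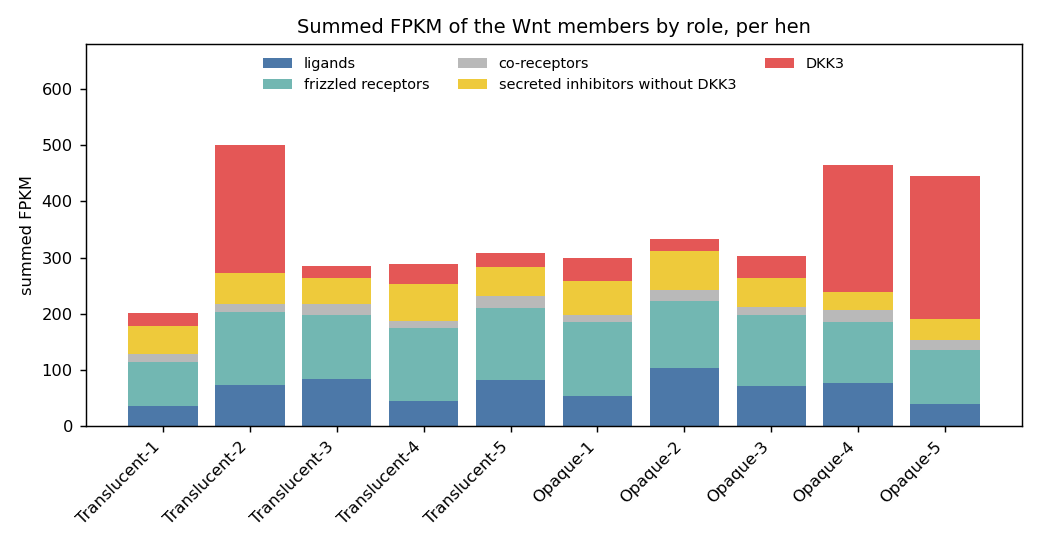
Summed FPKM of the members by role in each of the 10 hens, with DKK3 drawn apart from the other secreted inhibitors. The full bars run from 202 to 500 FPKM, and the 3 highest, Translucent-2, Opaque-4 and Opaque-5, are those in which DKK3 is high.

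The median spread between hens was higher for the members than for all tested genes, which were not matched for read count. The median SD of log2 CPM over the 10 hens was 0.455 for the 23 members and 0.344 for all tested genes, given as a description. Counting error adds to this SD where reads are few, and the tested members ranged from 130 reads for WNT2 to 21728 for FZD6 over all hens. Opaque-5 was the lowest hen for 10 of the 23 members, namely FZD1, FZD4, FZD7, LRP6, SFRP1, WNT2, WNT5A, WNT5B, WNT7A and WNT7B, and it was the lowest hen for 24.1% of all tested genes. The same hen was highest for DKK3 and LRP5. Opaque-3 was neither the lowest nor the highest hen for any tested member.

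Since whole tissue holds several cell types, each tested member was set against the mean log2 CPM of epithelial, stromal and smooth muscle markers across the 10 hens, after the group means were removed. This gave 69 relations, tested by exact permutation of the hens within groups. The adjusted p of Pearson's r was under 0.05 in 8 of them, and the unadjusted p in 22, or 31.9%. Over all tested genes the same 3 marker levels gave an unadjusted p under 0.05 in 29.5% of relations, so the pooled count for the members was near the background. By list the shares were 39.1% of members and 44.2% of all genes for epithelium, 26.1% and 28.4% for stroma, and 30.4% and 15.8% for smooth muscle. For smooth muscle the share was higher among the members (7 of 23), and this difference was not tested. The relations below describe single members, and such relations were also common over all tested genes. DKK3 fell into separate clusters of hens, so no r is given for it, although its relations counted in the adjustment.

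The closest relation was that of FZD4, a receptor known from blood vessel growth, to the epithelial markers. Pearson's r was −0.944 (exact permutation p = 0.000208, adjusted p = 0.0144) and Spearman's rho −0.952 (exact permutation p = 0.000764, adjusted p = 0.0311), and r was −0.957 without Opaque-5 and Translucent-1, the hens farthest from the median. FZD4 was thus lower in hens with more epithelial message, and it rose with the stromal markers (r = 0.923, adjusted p = 0.0438, rho = 0.830, adjusted p = 0.106, exact permutation). FZD3 followed the stromal markers with r = 0.821 (adjusted p = 0.0144) and rho = 0.733 (adjusted p = 0.0886, exact permutation), and with r = 0.956 without Opaque-5 and Opaque-4. WNT5A, known as a mesenchymal ligand, also followed the stromal markers (r = 0.898, adjusted p = 0.0491, rho = 0.867, adjusted p = 0.105, exact permutation), with r = 0.744 without those hens.

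The co-receptors went in opposite directions. LRP5 rose with the epithelial markers (r = 0.866, adjusted p = 0.0438, rho = 0.758, adjusted p = 0.176, exact permutation) and fell with the stromal markers (r = −0.899, adjusted p = 0.0438, rho = −0.806, adjusted p = 0.176, exact permutation). The epithelial and stromal levels themselves ran largely opposite across the hens. Opaque-5 had the highest epithelial level (8.66 log2 CPM) and the lowest stromal level (4.69). The paired relations of LRP5 and of FZD4 to these 2 lists are therefore not separate observations. LRP6 fell with the epithelial markers (r = −0.853, adjusted p = 0.0438, rho = −0.745, adjusted p = 0.145, exact permutation), and its r was −0.563 without Opaque-5 and Translucent-1. WNT9A was lower in hens with more smooth muscle message, with r = −0.675 (adjusted p = 0.0438) and rho = −0.915 (adjusted p = 0.0311, exact permutation), and r = −0.743 without Translucent-1 and Translucent-3. With the farthest hens left out, 0 of the 69 relations had an adjusted p under 0.05 and 5 had an unadjusted p under 0.05 by the exact permutation test, with fewer permutations possible for 8 hens. Only FZD4 with epithelium and WNT9A with smooth muscle were below 0.05 in the adjusted p of both coefficients.

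**Figure D5:**
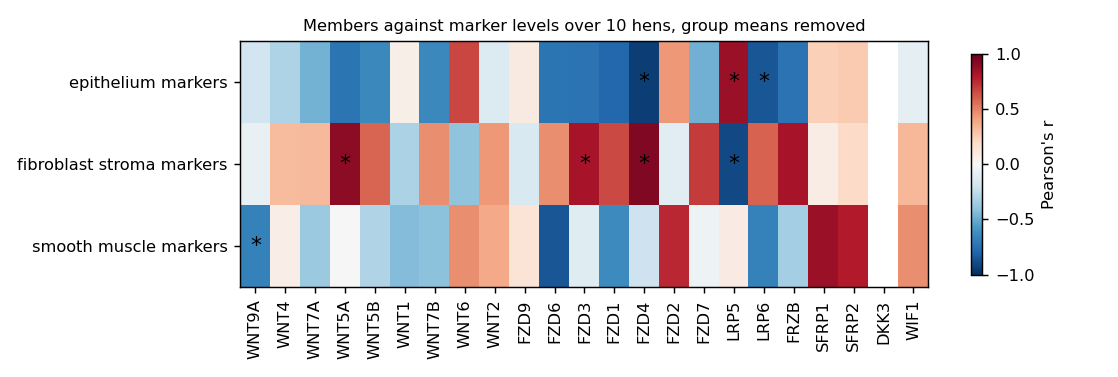
Pearson's r across the 10 hens, with group means removed, between each tested member (columns) and the mean log2 CPM of 3 marker lists (rows), with DKK3 left blank. Red is positive and blue is negative, and stars mark the 8 relations with an adjusted permutation p under 0.05. FZD4 and LRP6 are blue and LRP5 is red in the epithelial row, at −0.944, −0.853 and 0.866.

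Other genes of the pathway were read from 7 lists: secretion of the ligands, the R-spondin branch, further surface receptors, the cytoplasmic beta-catenin pathway, nuclear factors, common target genes and planar polarity. Of these 56 genes were in the table and 48 were tested, and 0 had an adjusted p under 0.05. At an unadjusted p under 0.05 in edgeR, LEF1 was higher and PTK7 lower in the translucent group, 4.17% of the list genes beside 2.19% of all tested genes. The median log2 fold change of the 48 genes was −0.11, and it was negative in 40 of them (83.3%) and in 51.4% of all tested genes. By list it was negative in 2 of 3 secretion genes, 4 of 4 R-spondin genes, 8 of 9 surface receptors, 9 of 11 cytoplasmic genes, 6 of 8 nuclear factors, 6 of 11 target genes and 8 of 8 planar polarity genes, where some genes are in more than 1 list. Most of these negative values were smaller than their own SE. The genes also shared hens: ROR1, LGR5 and DAAM2 had their lowest FPKM in Translucent-1 and Opaque-5, and PYGO2 and MYC their highest. The signs are therefore not independent counts, and a shift of the lists as a whole was not tested.

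LEF1, the nuclear partner of beta-catenin and itself a common target, measured 1.36, 1.73, 1.70, 1.86 and 2.21 FPKM in the translucent hens and 1.15, 1.49, 0.81, 0.55 and 0.65 FPKM in the opaque hens. In FPKM Opaque-2 lay above Translucent-1, and in CPM all 5 translucent hens were above all 5 opaque hens, as in 0.443% of all tested genes. The levels were 3.22 ± 0.403 and 1.74 ± 0.637 CPM (SD, 5 hens each), and the log2 fold change was 0.88 (SE 0.28, edgeR unadjusted p = 0.00861, adjusted p = 0.9999, exact permutation p = 0.0079, the smallest that 5 against 5 hens can give). LEF1 is also made by T cells, and all 6 leukocyte markers had a positive log2 fold change (median 0.37). Their summed CPM was 719 in Translucent-5, 324 to 441 in the other translucent hens and 199 to 507 in the opaque hens. Each of the 6 had its highest FPKM in Translucent-5, and 0 of the 6 had an unadjusted p under 0.05 in edgeR. Without Translucent-5 the log2 fold change of LEF1 was 0.80. The glial markers differed more, with a summed CPM of 2.34 to 55.6 in the translucent hens and 0.791 to 5.15 in the opaque hens. The only one tested, MBP, had a log2 fold change of 2.75 (SE 0.75, edgeR unadjusted p = 0.00351, adjusted p = 0.9999, exact permutation p = 0.0714). Its groups overlapped, with 1.5 FPKM in Translucent-1 and up to 6.18 FPKM in Opaque-2. Of the 6 tested magnum genes, OVAL and OVALY were also higher in the translucent group at an unadjusted p. Their log2 fold changes were 5.39 (SE 1.84, edgeR unadjusted p = 0.0130, exact permutation p = 0.103) and 4.94 (SE 1.46, edgeR unadjusted p = 0.00575, exact permutation p = 0.0397). OVAL was 5375, 801 and 275 FPKM in Translucent-1, Translucent-4 and Translucent-5, above every opaque hen. Translucent-2 and Translucent-3, at 24.8 and 9.6 FPKM, lay below Opaque-2 at 110 FPKM. The log2 fold changes of TF, SPINK7, LYZ and AVD were −0.06, 0.30, 0.48 and 0.84 (edgeR unadjusted p of 0.107 to 0.862). Of the 8 smooth muscle markers 6 had a negative log2 fold change, with 0 at an unadjusted p under 0.05 in edgeR. Against their level, with group means removed, FZD2 had r = 0.756 (adjusted p = 0.198) and rho = 0.842 (adjusted p = 0.105, exact permutation). WNT4 had r = 0.067 (adjusted p = 0.911) and rho = 0.552 (adjusted p = 0.288, exact permutation). The part of these markers in the LEF1, FZD2 and WNT4 differences was not tested.

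AXIN2, the target gene most often read as a sign of beta-catenin activity, measured 1.85, 2.69, 2.85, 4.07 and 2.98 FPKM in the translucent hens and 3.38, 3.91, 3.79, 3.15 and 1.54 FPKM in the opaque hens, with a log2 fold change of −0.11 (SE 0.24). PTK7, a surface co-receptor of planar polarity, averaged 47.2 ± 2.57 CPM over the translucent hens and 56.5 ± 7.92 CPM over the opaque hens (SD, 5 hens each), with a log2 fold change of −0.26 (SE 0.12, edgeR unadjusted p = 0.0481, exact permutation p = 0.0476). WLS, which carries Wnt ligands to the cell surface, was abundant at 141 to 272 FPKM, and beta-catenin itself (CTNNB1) averaged 224 FPKM. Their log2 fold changes were −0.03 (SE 0.13) and −0.23 (SE 0.14). The R-spondin receptors LGR4 and LGR5 averaged 32.5 and 20.2 FPKM, and LGR5 ranged from 3.59 FPKM in Opaque-5 to 39.7 FPKM in Opaque-3. Among the remaining leading genes of the lists, the receptor RYK averaged 43.0 FPKM, the beta-catenin inhibitor CTNNBIP1 averaged 16.5 FPKM and the polarity gene VANGL1 averaged 5.41 FPKM.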

How the data were processed

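Libraries from the white isthmus of 10 hens, 5 per group, were compared, with each hen as a replicate. The authors used fastp for read filtering, Bowtie2 to discard rRNA, HISAT2 for alignment to the chicken genome, StringTie for transcript assembly and RSEM for quantification. The genome build is not given in the sources used here. The deposited expected counts, estimated per gene and hen by the authors, were not normalized, and 6.73% were fractional and were rounded. The deposited FPKM values were corrected by the authors for gene length and mapped fragments, so changes in the mapped total of a hen move all its values.

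Counts were tested with edgeR 4.0.16 (TMM, filterByExpr, quasi-likelihood test, Benjamini-Hochberg adjustment over all 12858 genes) in R 4.3.3. The SE beside an edgeR log2 fold change is the absolute change divided by the square root of the F statistic of the quasi-likelihood test. It is therefore less reliable where the change is near 0. TMM factors were between 0.855 and 1.09. Log2 CPM used a prior count of 2. Exact two-sided permutation tests ran over the 252 allocations of the hens to 5 and 5, and relations over 14400 permutations within groups. The floor of 3 reads covers counting error only. Alternatives were DESeq2 1.42.0, no low-count filter, scaling by median-of-ratios size factors or by library size alone, a minimum of 10 reads per hen, limma 3.58.1 on log2(FPKM + 1) and log2(FPKM + 0.1), the replicate block, hens 1 to 3 of each group, omission of Translucent-1 and Opaque-5 together, and each hen left out in turn. The steps were tested on simulated data. Figures were drawn with matplotlib 3.10.9.

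The members, gene lists and tests were chosen with earlier results of these data known. Hen by hen values are given for the 2 members with the highest mean FPKM in each role, members with an unadjusted p of at most 0.05 or without overlap in CPM, and the 3 most variable members. Of the other pathway genes, AXIN2, LEF1, the most abundant gene of each list and genes with an unadjusted p of at most 0.05 are named. LGR5, MBP, OVAL, OVALY and the neighbours of DKK3 were chosen with their values known. Members below the filter were taken from a fit without it. The epithelial markers were 6 of 8 listed, since KRT19 and CLDN4 were not matched. No sequences or coordinates are printed here, and gene order in GRCg7b was used only to choose the neighbours of DKK3.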

Additional observations from a re-analysis of the deposited data

Results flagged for a closer look

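Among 46 groups of 5 hens (23 members in each group), the highest or lowest hen stood far from the other 4 in 5 cases, or 10.9%. By chance about 1 in 20, or 2.3, would be seen, and by the same measure 8.08% of the groups of all tested genes were, so the count was near that of all genes. Translucent-1 holds 2 of the cases and was the lowest hen for 12.9% of all tested genes. DKK3 was 310 CPM in Translucent-2 and 29.6 to 46.5 CPM in the other translucent hens. WIF1 was 8.75 CPM in Opaque-4 and 24.99 to 35.7 CPM in the other opaque hens. Translucent-1, the hen with the highest summed magnum markers, was low for FZD6, at 99.6 CPM against 153 to 168, and for FZD1, at 6.15 CPM against 10.5 to 12.7. FZD2 was 2.08 CPM in Opaque-2 and 2.77 to 3.04 CPM in the other opaque hens.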

How the results depend on the processing

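Under every alternative 0 members were called. At an unadjusted p under 0.05 edgeR found 2 members, and this became 1 with library size alone, with limma on log2(FPKM + 1) and on log2(FPKM + 0.1), with the replicate block and without Translucent-1 and Opaque-5, and between 1 and 3 when single hens were left out. The replicate numbers belong to different hens. In log2 CPM with the group means removed, same-numbered hens correlated at −0.13 on average and differently numbered hens of opposite groups at 0.04. Of the hens, 0 of 10 correlated best with their own number, and with the block 1.26% of all genes passed. Of the 16 named genes, 6 (FZD2, WNT4, SFRP1, LEF1, PTK7 and AXIN2) kept their direction in every alternative, from −0.85 to −0.43 for FZD2 and −0.54 to −0.33 for WNT4 on the log2 scale. The unadjusted p was under 0.05 in 19 of 20 alternatives for FZD2 and LEF1, 9 for WNT4 and 5 for PTK7. For FZD2 and LEF1 the exception was hens 1 to 3 (edgeR unadjusted p = 0.124 and 0.128). These genes all had an unadjusted p under 0.05 in the main fit, and the alternatives reuse the same hens. The counts are therefore not separate support.

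The other 10 genes changed sign in 42 of 319 values over all genes. For WNT9A (main −0.0066) the value was 0.0004 with median-of-ratios size factors, 0.0077 with library size alone, 0.0075 without the filter, 0.0145 and 0.0144 with limma, 0.0326 with the replicate block, 0.0544 with hens 1 to 3 and 0.0412 without Translucent-1 and Opaque-5. For FZD9 it was 0.003 with DESeq2, 0.0034 with median-of-ratios size factors and with at least 10 reads, 0.0009 with library size alone, 0.0106 without the filter, 0.0651 with hens 1 to 3 and 0.0991 without Translucent-1 and Opaque-5. With hens 1 to 3, FZD6 was −0.1036, LRP5 0.4055, LRP6 −0.5522, FRZB −0.448, DKK3 1.5448 and the log2 difference of summed inhibitors 0.2588 (main −0.50), and 7.67% of all genes had an unadjusted p under 0.05. Without Translucent-1 and Opaque-5 the difference of the frizzled sum was 0.0539 (main −0.01). With each hen left out in turn, the values ranged from −0.2035 to 0.3152 for WNT9A, −0.0654 to 0.0617 for FZD9, −0.0091 to 0.1593 for FZD6, −0.2579 to 0.4893 for LRP6, −0.1275 to 0.2389 for FRZB, −0.0376 to 0.3488 for WIF1, −0.2162 to 0.4658 for WNT7B, −0.5536 to 0.0545 for WNT7A, −0.2945 to 0.071 for summed ligands and −0.084 to 0.1241 for summed frizzled receptors. Without the 2 farthest hens 0 relations passed against 8. Fewer permutations are possible for 8 hens, so a small adjusted p is harder to reach and these counts cannot be compared. With library size alone 8 passed, of which 5 were the same. The cause of these changes was not tested. Depth limits members under 1 FPKM, and totals were lower in the opaque group.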
